A study of Mus musculus with 9 samples.

Results

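The enzymes that attach glutathione, glucuronic acid or sulfate to drugs, hormones, bile acids and reactive compounds were followed as 47 genes among the 27745 gene names on an Agilent mouse array. They were found by name in the array's probe annotation, without use of any measured value. The set held 20 cytosolic glutathione S-transferases, 3 microsomal glutathione S-transferases, 14 genes of the UDP-glucuronosyltransferase family (UGT) and 10 cytosolic sulfotransferases. In the UGT family, Ugt3a1, Ugt3a2 and Ugt8a are known for sugars other than glucuronate. The 47 genes had 65 probes, and 15 of them had more than 1 probe. Each gene was represented by its probe with the highest mean level over the 9 arrays.

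Conjugation is the step that makes many foreign and endogenous compounds water-soluble before transporters carry them out of the cell. Glutathione S-transferases join glutathione to electrophiles, UDP-glucuronosyltransferases of the endoplasmic reticulum use UDP-glucuronate, and cytosolic sulfotransferases use the activated sulfate donor PAPS. Enterocytes of the small intestine and proximal tubule cells of the kidney are both known for these reactions, and each tissue is known to use its own members of every family.

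The study sorted epithelial cells of C57BL/6 mice, with no transgene or treatment named. Kidney cells were freed with collagenase, dispase and DNAse and sorted as Epcam+ CD45- Fluorogold- (Kidney). Small intestinal cells were released with EDTA and sorted as Epcamhi MHChi (MHCIIhi) or as Epcamint MHCint (MHCIIlo, whose cell type label reads MHCIIint), both CD45- Fluorogold-. Epcam is an epithelial adhesion molecule, MHC class II marks antigen presentation, CD45 marks leukocytes and Fluorogold marks dead cells. Each group had 3 replicates, described as independent, with 4 mice pooled per Kidney replicate and 3 per intestinal replicate. Age and sex are not given in the sources used here.

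The sorted cells were mixtures. In Kidney, markers of the thick ascending limb (5 of 5), the proximal tubule (11 of 11), the distal convoluted tubule (4 of 4) and the collecting duct (6 of 6 of principal cells and 5 of 5 of intercalated cells) were well above background on all 3 arrays. So were all 6 endothelial markers, with a summed signal of 31.3 to 75.8 times the array's 75th percentile in Kidney, against 0.175 to 0.232 in MHCIIhi and 0.253 to 0.396 in MHCIIlo. Of the 11 proximal tubule markers, 6 were also above background on all MHCIIhi arrays and 5 on all MHCIIlo arrays. That list summed to 180 to 478 in Kidney, 37.4 to 52.8 in MHCIIhi and 49.4 to 73.9 in MHCIIlo. All 13 enterocyte markers were above background on every intestinal array, with a summed signal of 1052 to 2375 in MHCIIhi and 3456 to 5160 in MHCIIlo. Stem and cycling cell markers summed to 58.6 to 108 in MHCIIhi and 8.99 to 16.2 in MHCIIlo, and goblet cell markers to 984 to 1685 in MHCIIhi and 359 to 725 in MHCIIlo. B and plasma cell markers summed to 1.07 to 2.12 in MHCIIhi and 21.3 to 35.6 in MHCIIlo. The part of these mixtures in the differences below was not tested, and in bulk samples fewer cells of a type and less RNA per cell cannot be told apart. The 3 Kidney arrays lay on a slide of their own, so kidney against intestine and slide cannot be told apart. MHCIIhi 3 shared a slide with MHCIIlo 1, 2 and 3, whereas MHCIIhi 1 and 2 lay on another.

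A level below is the log2 processed signal minus that array's 75th percentile over all non-control probes, so that 0 marks the 75th percentile. A probe's level says nothing about another probe's, and levels are compared only across arrays. A difference is given in log2 ± SE from limma over all genes tested, with its Benjamini-Hochberg adjusted p. A member was called at an adjusted p below 0.05 and a difference of at least 1. A gene was tested where 1 group or more had it well above background on each of its 3 arrays, which held for 43 of the 47 members, and 33 of these were above background on all 9 arrays. The other 10 tested members passed through some groups only, and the filter itself favours a difference in such genes. Ugt3a1, Ugt3a2, Ugt8a, Sult5a1 and Gstt4 passed through Kidney alone, Ugt1a1, Ugt2a1, Ugt2a3 and Ugt2b35 through the intestine, and Gsto2 through Kidney and MHCIIhi. The 4 genes Sult1e1, Sult3a1, Ugt1a9 and Ugt2b1 were above background on no array. Of these, Sult1e1 encodes the estrogen sulfotransferase.

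**Figure D1:**
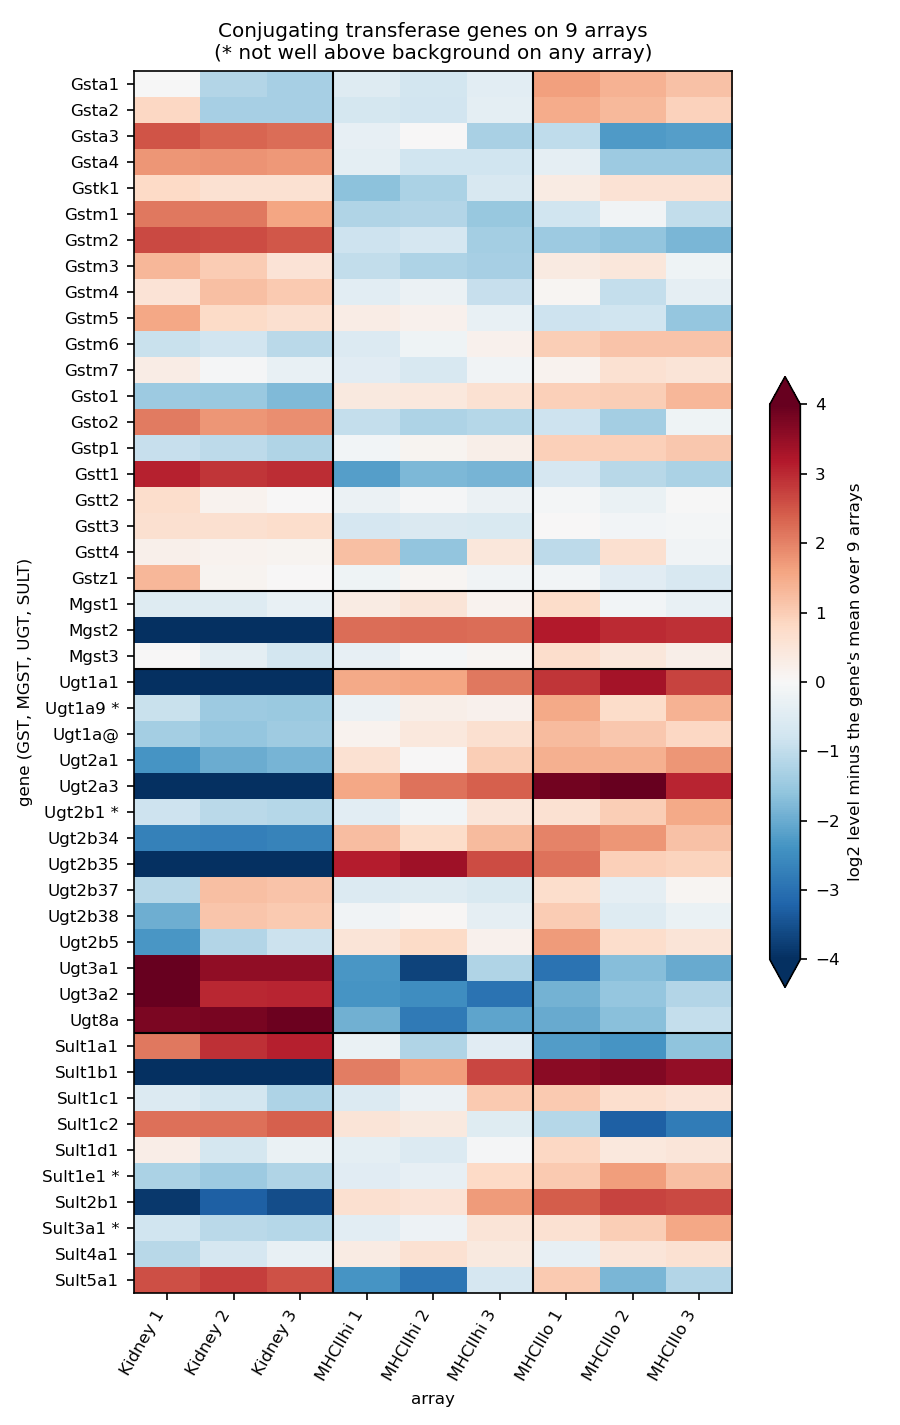
Level of each of the 47 members (rows, grouped as GST, MGST, UGT and SULT) on each of the 9 arrays (columns), as the log2 level minus the gene's own mean over the arrays, with colours ending at 4 units either way. Ugt3a1, Ugt3a2 and Ugt8a are red in Kidney, whereas Ugt1a1, Ugt2a3, Ugt2b35, Mgst2 and Sult1b1 are dark blue there. Asterisks mark the 4 genes above background on no array.

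In Kidney minus MHCIIhi, 16 of the 43 tested members were called higher (37.2%, against 25.6% of all genes tested) and 13 lower (30.2%, against 23%). In Kidney minus MHCIIlo, 14 were called higher (32.6%, against 29.7%) and 16 lower (37.2%, against 28%). In MHCIIhi minus MHCIIlo, 5 were called higher (11.6%, against 14.9%) and 10 lower (23.3%, against 16.2%). With normexp background correction the last split was 2 higher and 8 lower. Called in either direction were 67.4% of tested members in Kidney minus MHCIIhi (48.6% of all genes tested), 69.8% in Kidney minus MHCIIlo (57.7%) and 34.9% in MHCIIhi minus MHCIIlo (31.1%). The last share was near the background. The median difference over the tested members was 0.23 in Kidney minus MHCIIhi, 0.0058 in Kidney minus MHCIIlo and -0.65 in MHCIIhi minus MHCIIlo, beside medians over all genes tested of -0.030, 0.032 and -0.24. Over all 47 members, with the 4 untested ones, the medians were 0.08, -0.55 and -0.66. Without the filter, the medians over all 27745 genes were -0.43, -0.69 and -0.54. Both Kidney comparisons share the Kidney arrays, and each intestinal group enters 2 comparisons. By class, 10 of 20 cytosolic glutathione S-transferases were called higher and 2 lower in Kidney minus MHCIIhi, whereas of 12 tested UGT genes 3 were called higher and 7 lower. In Kidney minus MHCIIlo the counts were 8 higher and 5 lower for the first class and 3 and 7 for the second, and the difference between classes was not tested. In both comparisons the 3 higher UGT genes were Ugt3a1, Ugt3a2 and Ugt8a, and no tested UGT1 or UGT2 gene was called higher.

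The alpha class of glutathione S-transferases, which conjugates lipid peroxidation products and many drugs, did not move as a block. Gsta1 stood at 2.10, 1.90 and 2.19 in MHCIIhi, against 4.26, 4.00 and 3.81 in MHCIIlo. Every MHCIIhi array lay below every MHCIIlo array, and Gsta1 was called lower in MHCIIhi (-1.96 ± 0.32, adjusted p = 0.00244). Gsta2 stood at 0.94, 0.86 and 1.25 in MHCIIhi, against 3.12, 2.95 and 2.55 in MHCIIlo, and was called lower as well (-1.85 ± 0.52, adjusted p = 0.0191). The Gsta2 call was lost without MHCIIhi 1, MHCIIhi 2 or MHCIIlo 2, at adjusted p of 0.0555, 0.0606 and 0.0552. Gsta3, whose product also isomerises steroid precursors in humans, went the other way. Its levels were 0.69, 1.02 and -0.29 in MHCIIhi and 0.01, -1.25 and -1.20 in MHCIIlo, so that the groups overlapped. The Gsta3 difference of 1.29 ± 0.41 passed the test (adjusted p = 0.0296). It fell short of the call without MHCIIhi 1 (1.18), MHCIIhi 2 (1.02), MHCIIlo 2 (1.07) or MHCIIlo 3 (1.1), and with slide as a fixed term it was 0.53. Nor was Gsta3 called with normexp or with slide as a random block. Gsta4, which is known for clearing hydroxynonenal, differed by 0.42 ± 0.29 with overlapping groups and was not called.

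Gsta3 and Gsta4 were the alpha genes called higher in Kidney than in the intestine. Gsta3 stood at 3.54, 3.35 and 3.24 in Kidney, above all 6 intestinal arrays, and was called higher against MHCIIhi (2.90 ± 0.41, adjusted p = 0.000272) and against MHCIIlo (4.19 ± 0.41, adjusted p = 2.21e-05). Gsta4 at 1.86, 1.89 and 1.83 in Kidney was also called higher, by 2.42 ± 0.29 against MHCIIhi and 2.84 ± 0.29 against MHCIIlo. The Kidney arrays disagreed for Gsta1 (2.60, 1.47 and 1.31) and Gsta2 (2.46, 0.31 and 0.31), with Kidney 1 far above the other two. Gsta1 and Gsta2 were nevertheless called lower in Kidney minus MHCIIlo (-2.23 ± 0.32 and -1.85 ± 0.52, adjusted p = 0.000252 and 0.0109) and were not called against MHCIIhi. With slide as a random block the Gsta2 difference of -1.79 was no longer called, and without Kidney 1 it was -2.56.

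Gsta1 and Gsta2 encode close relatives, and their probes are shown because the 2 readings moved together. Capitals mark the longest run of bases present in both probes, 20 of 60. From the start of the Gsta2 probe up to that run, the 2 probes also matched, except at the base next to the run. On mm8, the build the array annotation uses, they lie at chr9:78021721-78025202 on the plus strand for Gsta1 and chr9:78119521-78119580 on the minus strand for Gsta2. Between probes of any other 2 members the longest shared run was 12 bases. Whether either probe also binds the other transcript was not tested.
Gsta1 probe: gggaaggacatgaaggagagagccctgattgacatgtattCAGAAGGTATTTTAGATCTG
Gsta2 probe: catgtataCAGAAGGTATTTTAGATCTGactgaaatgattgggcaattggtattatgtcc

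**Figure D2:**
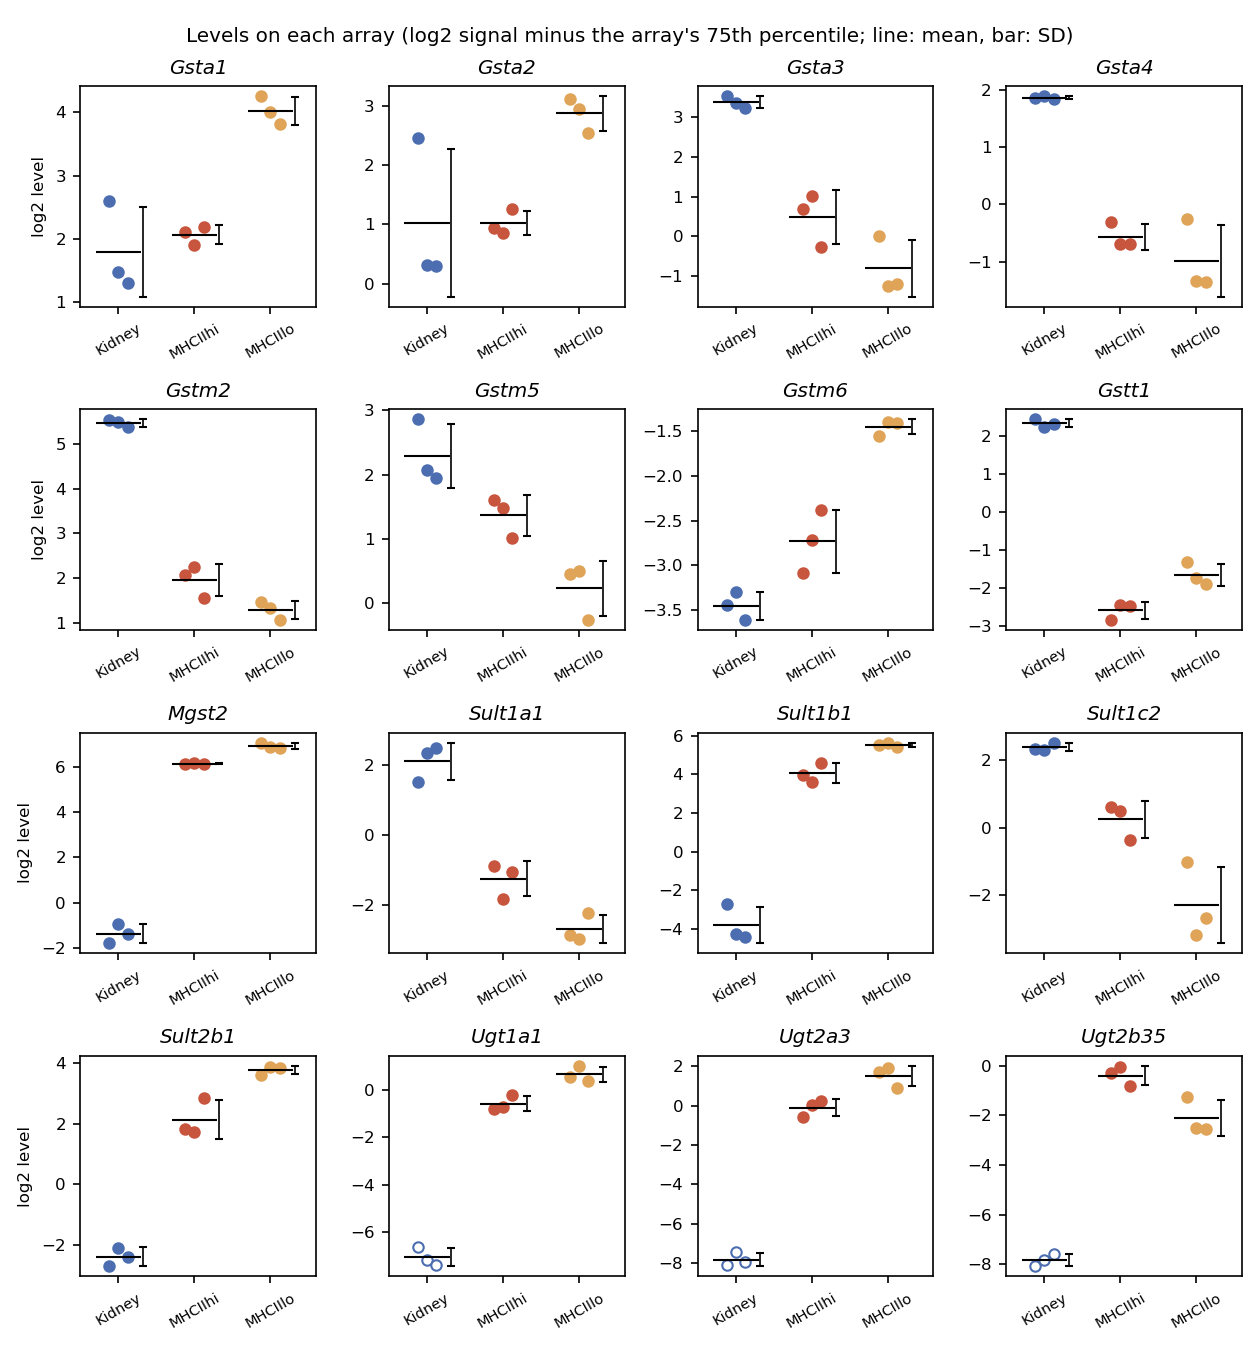
Levels of 16 members on each array (points), with the group mean (line) and SD (bar). Each panel has its own vertical axis, and open points mark a group in which the probe was not well above background on all 3 arrays. Gsta1 and Gsta2 are highest in MHCIIlo, whereas Gsta3 and Gsta4 are highest in Kidney.

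The mu class, whose 7 members are neighbours on chromosome 3, held members called in both directions within the intestine. Gstm5 stood at 1.60, 1.48 and 1.01 in MHCIIhi, against 0.46, 0.50 and -0.26 in MHCIIlo, and was called higher (1.13 ± 0.31, adjusted p = 0.0176). The Gstm5 call was lost without MHCIIhi 1 (1.01), MHCIIhi 2 (1.07) or MHCIIlo 3 (0.89). Gstm3 stood at 3.76, 3.52 and 3.42 in MHCIIhi, against 5.11, 5.21 and 4.57 in MHCIIlo, and was called lower (-1.39 ± 0.25, adjusted p = 0.00354). Gstm6 was likewise called lower, with -3.09, -2.72 and -2.38 in MHCIIhi against -1.55, -1.40 and -1.42 in MHCIIlo (-1.27 ± 0.20, adjusted p = 0.00214). None of these 3 genes had overlapping groups. With normexp Gstm6 was not called (-0.93), nor was Gstm3 with quantile normalization (-0.97). Gstm2 differed by 0.68 ± 0.21 and Gstm7 by -0.83 ± 0.22, both under the size threshold. Gstm4, with overlapping groups, differed by -0.11 ± 0.31. The chosen Gstm1 probe differed by -0.66 ± 0.26, whereas its other probe differed by 0.46, so no direction is given for Gstm1 within the intestine.

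Against each intestinal group, 4 mu genes were called higher in Kidney, with Gstm1, Gstm2 and Gstm4 in both comparisons. Gstm1 stood at 6.92, 6.90 and 6.37 in Kidney, against 3.60, 3.64 and 3.28 in MHCIIhi and 4.01, 4.67 and 3.83 in MHCIIlo. It was called higher by 3.22 ± 0.26 against MHCIIhi and 2.56 ± 0.26 against MHCIIlo (adjusted p = 8.72e-06 and 2.82e-05), and its other probe gave 3.94 and 4.40. Gstm2 stood at 5.55, 5.50 and 5.38 in Kidney, against 2.07, 2.24 and 1.55 in MHCIIhi and 1.45, 1.32 and 1.06 in MHCIIlo. That made Gstm2 11.5-fold higher than in MHCIIhi and 18.4-fold higher than in MHCIIlo (3.52 ± 0.21 and 4.20 ± 0.21, adjusted p = 1.54e-06 and 4.69e-07). Gstm3 (6.08, 5.77 and 5.30 in Kidney) was called higher against MHCIIhi (2.15 ± 0.25) and differed by 0.76 ± 0.25 from MHCIIlo, which became 1.74 with quantile normalization and 1.18 with normexp, past the threshold. Gstm4 was called higher by 1.46 ± 0.31 and 1.35 ± 0.31, and with normexp it was not (0.70 and 0.14). Gstm5 (2.86, 2.07 and 1.94 in Kidney) was called higher against MHCIIlo alone (2.06 ± 0.31, adjusted p = 0.000331), with 0.92 ± 0.31 against MHCIIhi.

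Gstm6 was the mu gene called lower in Kidney. Its levels of -3.44, -3.30 and -3.61 lay below every intestinal array, with a difference of -2.00 ± 0.20 from MHCIIlo (adjusted p = 2.87e-05) and an uncalled -0.72 ± 0.20 from MHCIIhi. Gstm7 was called in no comparison. Mu and other paralogs are alike in sequence, and the share of their transcripts that a neighbour's probe also reads was not tested.

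Among the other cytosolic classes, Gstt1, a theta-class enzyme that acts on small halogenated compounds, was far higher in Kidney. It stood at 2.44, 2.24 and 2.32 in Kidney, against -2.83, -2.43 and -2.48 in MHCIIhi and -1.32, -1.74 and -1.89 in MHCIIlo. The groups did not overlap, and Gstt1 was 30.1-fold higher in Kidney than in MHCIIhi and 15.8-fold higher than in MHCIIlo (4.91 ± 0.20 and 3.98 ± 0.20, adjusted p = 1.56e-07 and 4.50e-07). Its theta relatives moved less: Gstt3 was called higher against MHCIIhi (1.28 ± 0.14) and differed by 0.71 ± 0.14 from MHCIIlo, and Gstt2 was called in no comparison. Gstt4 was dim, above background on all 3 Kidney arrays, 1 MHCIIhi array and no MHCIIlo array, and was not called.

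The omega class, which reduces dehydroascorbate and other substrates, split between tissues. Gsto1 stood at 4.47, 4.42 and 4.16 in Kidney, against 6.31, 6.33 and 6.53 in MHCIIhi and 6.86, 6.91 and 7.23 in MHCIIlo. Every Kidney array was below every intestinal one, and Gsto1 was called lower by -2.04 ± 0.18 and -2.65 ± 0.18 (adjusted p = 1.21e-05 against MHCIIhi and 2.11e-06 against MHCIIlo). Gsto2 lay the other way at -1.07, -1.37 and -1.28 in Kidney, against -4.10, -4.39 and -4.30 in MHCIIhi and -3.97, -4.52 and -3.31 in MHCIIlo, where 2 of 3 arrays measured it. It was called higher by 3.02 ± 0.28 and 2.69 ± 0.28, although the second value was 0.34 with normexp. The second Gsto2 probe, above background in Kidney alone, differed by 1.49 and 0.45. Both omega genes lay on chromosome 19.

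Gstp1, the pi-class enzyme common in epithelia, was called lower in Kidney by -1.14 ± 0.16 against MHCIIhi and by -2.06 ± 0.16 against MHCIIlo (adjusted p = 0.000281 and 6.08e-06), and the intestinal groups differed by -0.91 ± 0.16. The other Gstp1 probe gave -0.85 against MHCIIhi, and that call was lost with quantile normalization, with scaling to probes above background on all arrays and with the mean of both probes. Gstp1 has a close relative, Gstp2, and whether the probe reads both was not tested. Gstk1, the kappa enzyme of mitochondria and peroxisomes, stood at 3.95, 3.75 and 3.74 in Kidney, 1.51, 1.88 and 2.51 in MHCIIhi and 3.48, 3.73 and 3.71 in MHCIIlo. MHCIIhi was the low group: Gstk1 was called lower in MHCIIhi than in MHCIIlo (-1.67 ± 0.25, adjusted p = 0.00155) and higher in Kidney than in MHCIIhi (1.85 ± 0.25, adjusted p = 0.000196), while Kidney and MHCIIlo differed by 0.17 ± 0.25. Gstz1, which acts in tyrosine breakdown as maleylacetoacetate isomerase, was called in no comparison.

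The microsomal glutathione S-transferases are membrane proteins unrelated to the cytosolic classes. Mgst2, which can make leukotriene C4, stood at -1.77, -0.94 and -1.40 in Kidney, against 6.11, 6.15 and 6.12 in MHCIIhi and 7.06, 6.88 and 6.81 in MHCIIlo. The signal was above background on all 9 arrays, and Mgst2 was 181-fold lower in Kidney than in MHCIIhi and 313-fold lower than in MHCIIlo (-7.50 ± 0.22 and -8.29 ± 0.22, adjusted p = 2.97e-08 and 1.51e-08). Within the intestine it differed by -0.79 ± 0.22. Mgst1, the microsomal enzyme abundant in liver, and Mgst3 were called in no comparison, with differences between -0.84 and 0.22. A second Mgst3 probe differed by -1.29 in MHCIIhi minus MHCIIlo and by -1.94 in Kidney minus MHCIIlo, where the chosen one gave -0.59 and -0.84.

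**Figure D3:**
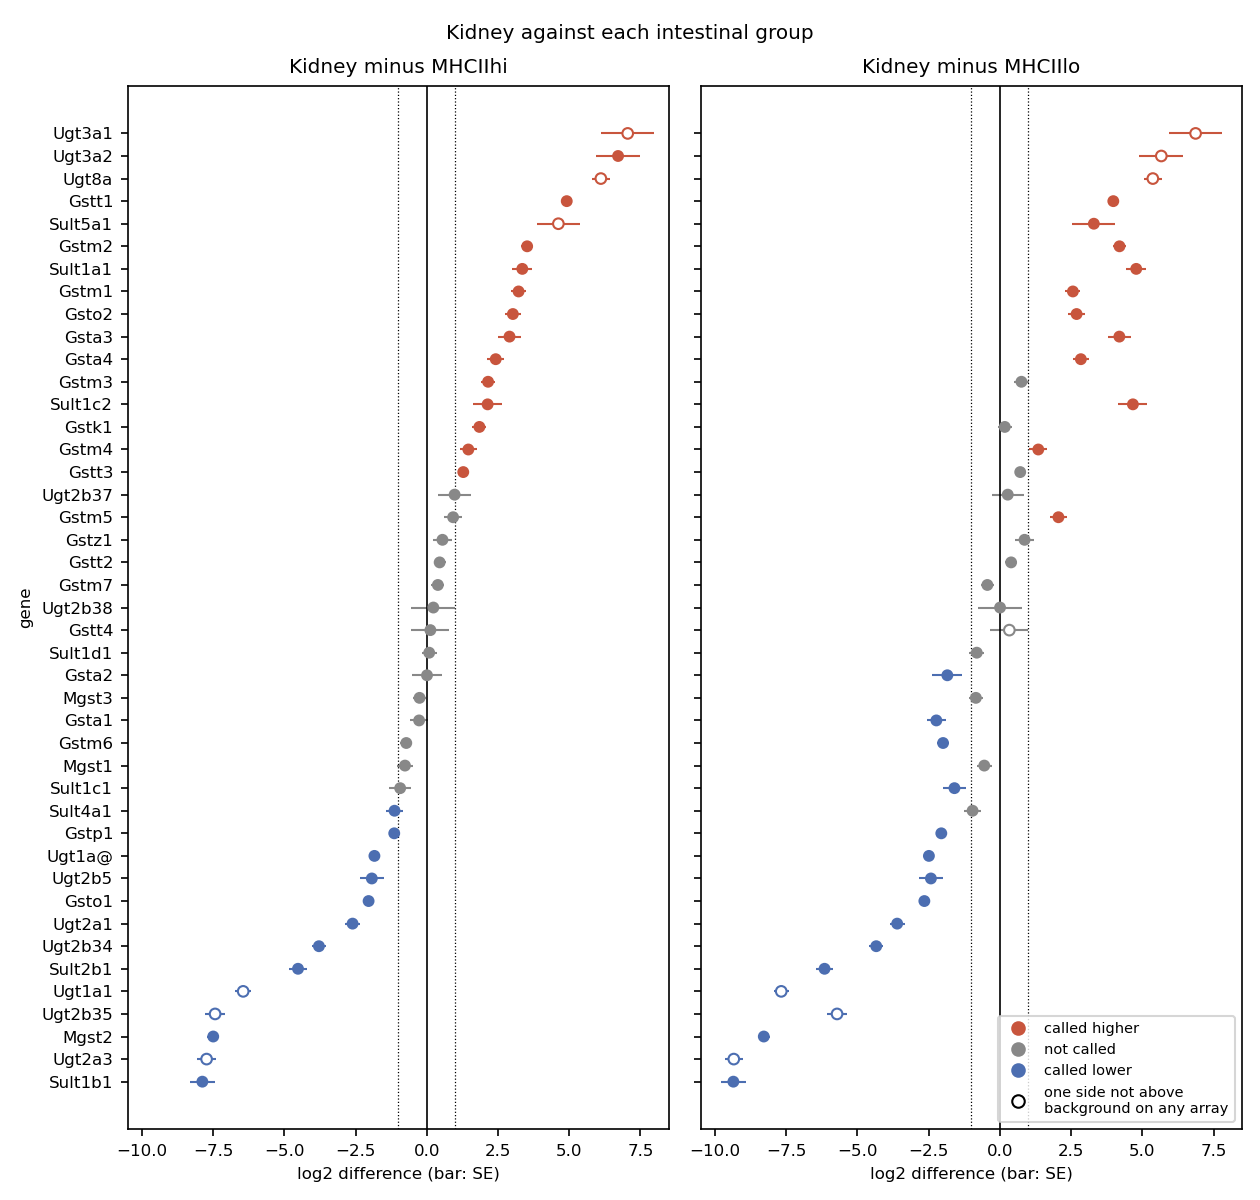
Log2 difference (points) with the SE of the fit (bars) for the 43 tested members, in Kidney minus MHCIIhi (left) and Kidney minus MHCIIlo (right), in the order of the left panel. Open points have one side above background on no array, and dotted lines mark the size threshold of 1. Ugt3a1 and Ugt3a2 are at the top, with Ugt2a3 and Sult1b1 at the bottom.

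In the UGT1 locus one set of downstream exons is shared and each enzyme has its own first exon. Ugt1a1, the bilirubin-conjugating enzyme, stood at -0.82, -0.74 and -0.23 in MHCIIhi, against 0.54, 1.0 and 0.36 in MHCIIlo. It was called lower in MHCIIhi without overlap (-1.23 ± 0.27, adjusted p = 0.00741), although with normexp the Ugt1a1 difference was -0.88, short of the call. On no Kidney array was Ugt1a1 well above background, with measured levels of -6.61, -7.16 and -7.36. Ugt1a1 was at least 41.7-fold lower in Kidney than in MHCIIhi and at least 97.8-fold lower than in MHCIIlo (adjusted p = 1.79e-07 and 6.15e-08). These bounds, here and below, set the mean of the brighter group against, on each array of the dimmer group, the higher of the probe's own level and the lowest level of any probe well above background. They hold for the main processing only. Over the alternative settings the fitted Ugt1a1 difference from MHCIIhi lay between -6.72 and -3.09, and -3.09 is a smaller fold than the bound.

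The second UGT1 reading carries the locus name Ugt1a@, and its 2 probes share an accession that RefSeq now calls Ugt1a6b. They are shown because they disagreed. The chosen probe, chr1:90050068-90050127 on mm8, had levels of 3.38, 3.17 and 3.29 in Kidney, 4.86, 5.14 and 5.37 in MHCIIhi and 5.98, 5.79 and 5.56 in MHCIIlo. It was called lower in Kidney by -1.84 ± 0.19 against MHCIIhi and -2.49 ± 0.19 against MHCIIlo (adjusted p = 3.95e-05 and 5.00e-06). The other probe lies upstream at chr1:89938426-89938485, before the Ugt1a1 probe. It was dim, above background on all 3 Kidney arrays, 1 MHCIIhi array and no MHCIIlo array, and was higher in Kidney by 1.86 and 2.35. A Kidney level above background at the chosen probe thus stood beside a Ugt1a1 probe that was not above background there, with the mean of both Ugt1a@ probes neither Kidney call was made, and no direction is given for the locus as a whole.
Ugt1a@ chosen probe: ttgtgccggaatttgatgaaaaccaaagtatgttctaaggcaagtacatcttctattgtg
Ugt1a@ other probe: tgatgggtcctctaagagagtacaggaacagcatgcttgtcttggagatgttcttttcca

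The UGT2 genes, which act on steroids, bile acids and phenolic drugs, are neighbours on chromosome 5, and 5 of the 7 tested were called lower in Kidney against each intestinal group and none higher (23% and 28% of all genes tested were called lower). Of these 5, Ugt2a1, Ugt2a3 and Ugt2b35 were tested through their intestinal signal. Ugt2a3, known in enterocytes and liver, stood at -0.59, 0.02 and 0.25 in MHCIIhi, against 1.72, 1.89 and 0.92 in MHCIIlo, and was called lower without overlap (-1.61 ± 0.32, adjusted p = 0.00525). In Kidney it was not above background (-8.10, -7.45 and -7.95), at least 58.8-fold lower than in MHCIIhi and at least 180-fold lower than in MHCIIlo (adjusted p = 1.80e-07 and 5.95e-08). Ugt2b35 was the UGT called higher in MHCIIhi, with -0.29, -0.06 and -0.82 against -1.27, -2.50 and -2.55 in MHCIIlo (1.72 ± 0.36, adjusted p = 0.00642). With normexp the Ugt2b35 difference was 0.75, short of the call. It too was above background on no Kidney array, at least 48.2-fold lower than in MHCIIhi and at least 14.7-fold lower than in MHCIIlo.

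Ugt2a1, first known from olfactory epithelium, stood at -3.06, -3.63 and -2.68 in MHCIIhi, against -2.25, -2.24 and -1.89 in MHCIIlo. Its difference of -1.0 ± 0.27 lay at the size threshold (adjusted p = 0.0152), and the call was lost without MHCIIhi 2 (-0.75) or MHCIIlo 3 (-0.88). That call was also lost with quantile normalization, with normexp and with slide as a random or fixed block. In Kidney, where 2 of 3 arrays measured it, Ugt2a1 was called lower by -2.61 ± 0.27 and -3.61 ± 0.27. The other Ugt2a1 probes gave -1.29 and -1.53 in MHCIIhi minus MHCIIlo. They too were lower in Kidney, where they were above background on no array. Ugt2b34 was called lower in Kidney by -3.79 ± 0.24 against MHCIIhi and -4.34 ± 0.24 against MHCIIlo, and Ugt2b5 by -1.93 ± 0.43 and -2.42 ± 0.43. Ugt2b37 and Ugt2b38 were called in no comparison, and their 3 Kidney arrays disagreed as described below. The second Ugt2b37 probe was below the intestine in Kidney (-0.79 and -1.29), against 0.98 and 0.28 at the chosen probe.

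The remaining UDP-glycosyltransferases were called higher in Kidney. Ugt3a1 and Ugt3a2, neighbours on chromosome 15 whose human counterparts use other sugars than glucuronate, were brightest in Kidney. Ugt3a1 stood at 3.14, -0.13 and -0.16 in Kidney and was above background on no intestinal array, at least 61.2-fold higher than in MHCIIhi and at least 29.4-fold higher than in MHCIIlo (adjusted p = 0.000175 and 0.000163). Without Kidney 1 these Ugt3a1 bounds were 28.6-fold and 13.7-fold. Ugt3a2 stood at 3.65, 0.35 and 0.37 in Kidney, against -5.03, -5.14 and -5.61 in MHCIIhi, where 1 of 3 arrays measured it. It was called higher against MHCIIhi (adjusted p = 7.64e-05), with a fitted difference of 6.72 ± 0.78 that rests on levels not well above background on 2 MHCIIhi arrays. Against MHCIIlo, Ugt3a2 was at least 41.7-fold higher (adjusted p = 0.000172), and without Kidney 1 the bound was 19.5-fold and the difference from MHCIIhi 5.62. The second Ugt3a2 probe, above background on all 3 Kidney arrays and no intestinal array, was higher in Kidney by 3.27 and 2.21. Ugt8a, which makes the galactosylceramide that kidney and myelin carry, stood at -0.88, -0.84 and -0.72 in Kidney and was above background on no intestinal array. That put Ugt8a at least 18.0-fold higher than in MHCIIhi and at least 8.66-fold higher than in MHCIIlo (adjusted p = 5.21e-07 and 9.17e-07), with a difference from MHCIIlo of 0.94 under normexp, short of the call. Of the other Ugt8a probes, 1 was higher in Kidney by 3.65 and 3.35 and 1 was above background on no array.

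Sulfotransferases of family 1 act on phenols, thyroid hormone and catechols, and members of this family were called in both directions within the intestine. Sult1c2 stood at 0.62, 0.49 and -0.38 in MHCIIhi, against -1.02, -3.17 and -2.69 in MHCIIlo, with no overlap, and was 5.79-fold higher (2.53 ± 0.51, adjusted p = 0.00518). MHCIIlo 1 stood apart, and without it the Sult1c2 difference was 3.17. Sult1a1, the phenol sulfotransferase, stood at -0.88, -1.82 and -1.07 in MHCIIhi, against -2.85, -2.98 and -2.24 in MHCIIlo, and was 2.70-fold higher (1.43 ± 0.35, adjusted p = 0.0111), though the difference was 0.35 with normexp. Sult1b1, which sulfates thyroid hormone, went the other way, with 3.98, 3.62 and 4.62 in MHCIIhi against 5.55, 5.66 and 5.45 in MHCIIlo (-1.48 ± 0.44, adjusted p = 0.0231). The Sult1b1 call was lost without MHCIIhi 1, MHCIIhi 2, MHCIIlo 2 or MHCIIlo 3, at differences from -1.53 to -1.25. Quantile normalization and slide as a random or fixed block lost it as well. Sult1c1, the neighbour of Sult1c2 on chromosome 17, differed by -0.66 ± 0.40 and Sult1d1 by -0.90 ± 0.27, and neither was called.

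Kidney widened the split among these genes. Sult1a1 stood at 1.49, 2.32 and 2.48 in Kidney and was called higher by 3.35 ± 0.35 against MHCIIhi and 4.79 ± 0.35 against MHCIIlo (adjusted p = 4.08e-05 and 3.74e-06). Sult1c2 at 2.31, 2.31 and 2.51 was called higher by 2.14 ± 0.51 and 4.67 ± 0.51 (adjusted p = 0.00540 against MHCIIhi and 4.12e-05 against MHCIIlo). Sult1b1, by contrast, stood at -2.72, -4.27 and -4.43 in Kidney, above background on all 3 arrays, 236-fold lower than in MHCIIhi and 656-fold lower than in MHCIIlo (-7.88 ± 0.44 and -9.36 ± 0.44, adjusted p = 9.66e-07 and 3.08e-07). Sult1c1 at -0.65, -0.83 and -1.33 in Kidney was called lower against MHCIIlo (-1.60 ± 0.40, adjusted p = 0.00561) and differed by -0.94 ± 0.40 from MHCIIhi. Sult1d1, a neighbour of Sult1b1, was called in neither Kidney comparison.

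Sult2b1, which sulfates cholesterol in epithelia, stood at 1.82, 1.71 and 2.86 in MHCIIhi, against 3.60, 3.87 and 3.82 in MHCIIlo, and was called lower (-1.63 ± 0.31, adjusted p = 0.00425). In Kidney it stood at -2.70, -2.08 and -2.38, below all intestinal arrays, 23.0-fold lower than in MHCIIhi and 71.3-fold lower than in MHCIIlo (adjusted p = 3.30e-06 and 4.59e-07). Sult5a1 stood at -1.89, -1.69 and -1.92 in Kidney and was above background on no MHCIIhi array and 1 MHCIIlo array. It was at least 8.90-fold higher in Kidney than in MHCIIhi, but with normexp that difference was 0.99, short of the call. Its difference of 3.30 ± 0.76 from MHCIIlo (adjusted p = 0.00364) was -0.018 with normexp, so no direction is given for Sult5a1 against MHCIIlo. Sult4a1, an orphan member best known in brain, was called lower in Kidney minus MHCIIhi (-1.13 ± 0.29), but not without Kidney 1 or with scaling to probes above background on all arrays. Its difference of -0.96 ± 0.29 from MHCIIlo fell short of the call, which was made with quantile normalization, normexp, the authors' table and the mean of its probes.

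**Figure D4:**
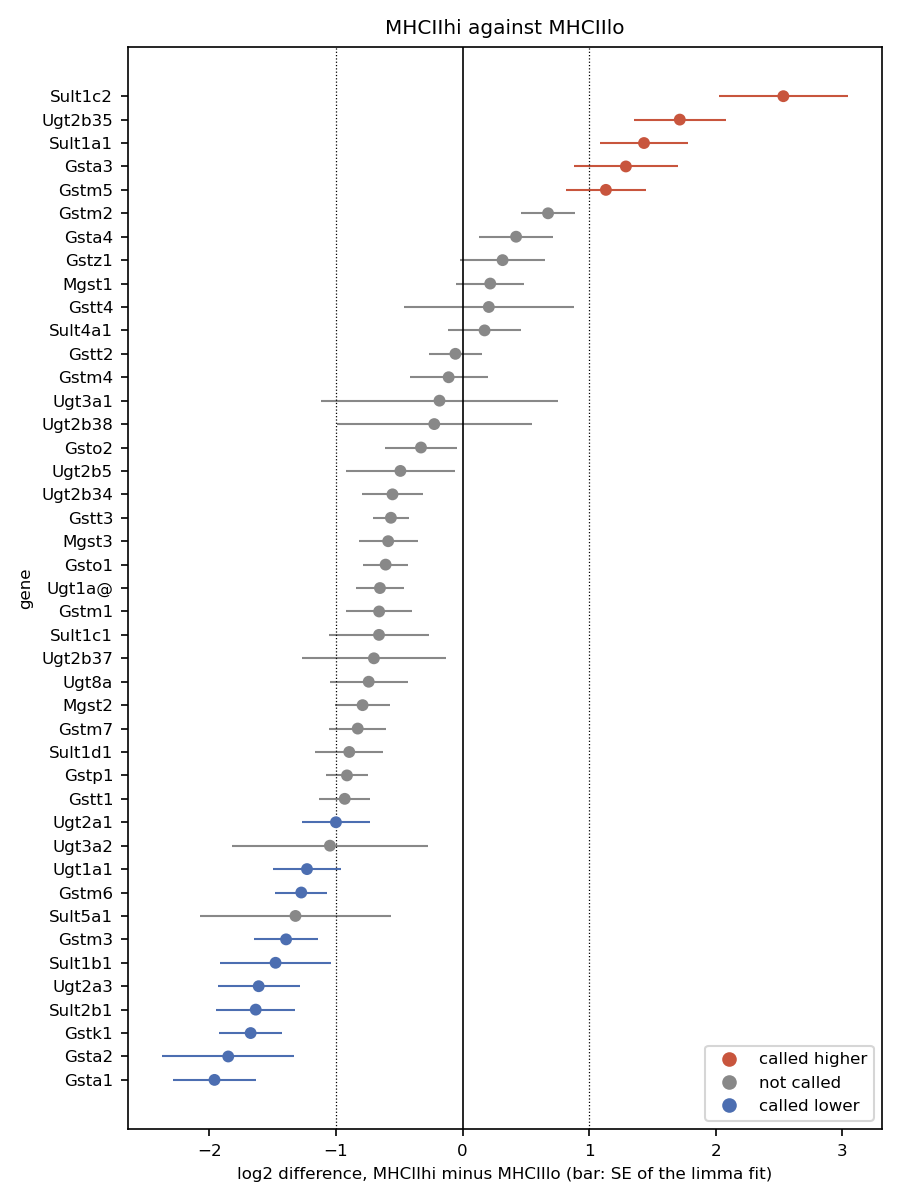
Log2 difference MHCIIhi minus MHCIIlo (points) with the SE of the fit (bars) for the 43 tested members, sorted by size. Red marks the 5 members called higher and blue the 10 called lower, and dotted lines mark the size threshold of 1. Sult1c2 is at the top and Gsta1 at the bottom.

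Slide was also fitted as a term in the intestinal comparison. With slide as a fixed term, which leaves MHCIIhi 3 alone against the 3 MHCIIlo arrays, 0 members were called higher and 2 lower, Gstk1 (-1.13, adjusted p = 0.0300) and Gstm3 (-1.54, adjusted p = 0.0412). In that fit 1350 of all genes tested were called higher and 302 lower. The 15 members called in the fit without slide kept their sign. Those called higher ranged from 0.53 for Gsta3 to 1.91 for Sult1c2, and those called lower from -1.83 for Gsta1 to -0.56 for Ugt2a1. In the comparison without slide, 27 of 43 tested members had groups that did not overlap (62.8%, against 56.6% of all genes tested). The corresponding counts were 34 (79.1%, against 72.3%) in Kidney minus MHCIIhi and 37 (86.0%, against 78.2%) in Kidney minus MHCIIlo. At an unadjusted p under 0.05, limma gave 27 members in MHCIIhi minus MHCIIlo (the share over all genes tested was 58.3%), 33 in Kidney minus MHCIIhi (67.3% over all genes) and 36 in Kidney minus MHCIIlo (74.7% over all genes).

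Single arrays stood apart from their group for some of these genes. MHCIIlo 1 was at least 1 log2 unit from the mean of MHCIIlo 2 and 3 for 9 of 43 tested members, 7 of them above, against 11.3% of all genes tested. Among the 7 were Gsta3, Gsta4, Sult1c2 and Ugt2b35. Sult5a1, also among them, was above background on 1 MHCIIlo array, and the 2 below, Gstt4 and Ugt3a1, on none. Kidney 1 likewise was that far from the mean of Kidney 2 and 3 for 9 members, against 5.9% of all genes tested. The 6 above were Ugt3a1, Ugt3a2, Gsta2, Sult1b1, Gstz1 (2.28, against 1.06 and 0.96) and Gsta1. The 3 UGT2 genes below were Ugt2b38, Ugt2b37 and Ugt2b5: Ugt2b38 stood at -3.30 in Kidney 1, against -0.23 and -0.29 in Kidney 2 and 3, Ugt2b37 at -2.15, against 0.17 and 0.08, and Ugt2b5 at -4.01, against -2.83 and -2.53. The proximal tubule markers summed to 478 in Kidney 1, against 213 and 180 in the other two, the thick ascending limb markers to 782, against 835 and 927, and the endothelial markers to 31.3, against 75.8 and 55.4.

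Single proximal tubule markers differed in how they followed Kidney 1. The endocytic receptor Lrp2 stood at 4.93 in Kidney 1, against 2.22 and 2.33, and its partner Cubn at 2.58, against -0.67 and -0.88. Cubn was higher on every intestinal array, at 3.19 to 5.52. The androgen-regulated kidney gene Kap stood at 8.22, against 6.29 and 6.17. Its signal was the largest of these markers on Kidney 1 and so weighed most in the sum of 478. The phosphate transporter Slc34a1 (2.62, 2.69 and 2.60) and the glucose transporter Slc5a2 (1.0, 1.12 and 1.29) were alike on the 3 arrays. Hnf4a, a regulator of intestinal and tubular genes, stood at 1.32 in Kidney 1, against -1.14 and -1.44. The part of these markers in the spread of the members was not tested. Without Kidney 1, members called higher numbered 18 in Kidney minus MHCIIhi and 15 in Kidney minus MHCIIlo, where Ugt2b37 was added in both and Ugt2b38 in the first, and members called lower numbered 12 and 18.

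**Figure D5:**
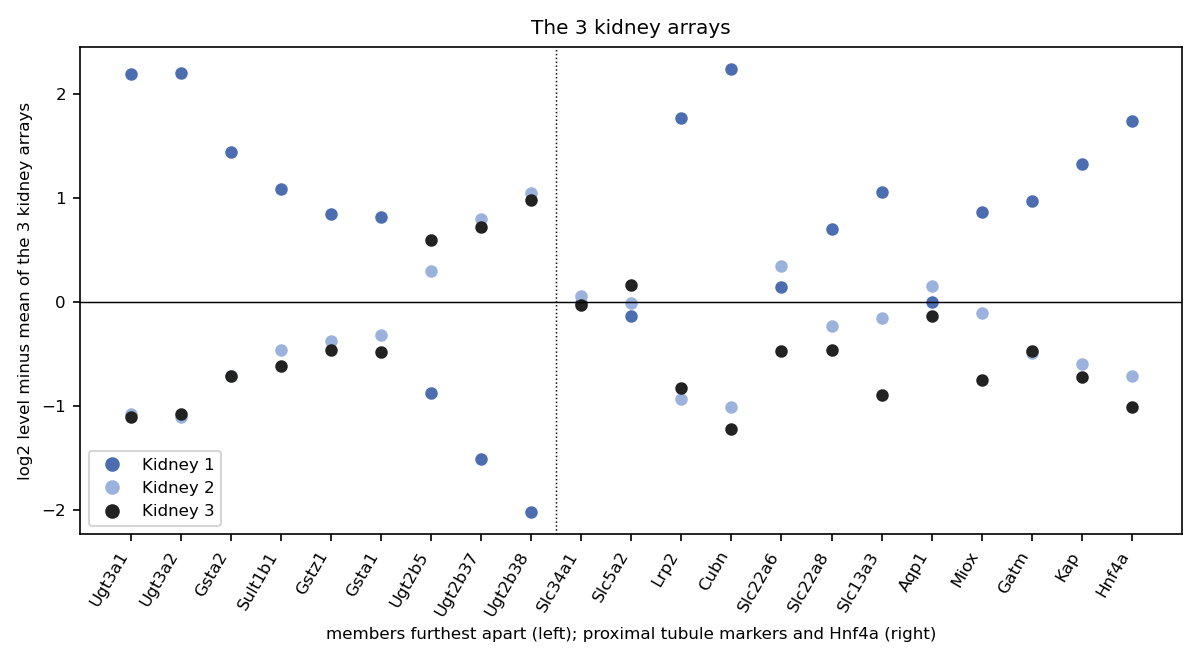
Log2 level of each Kidney array minus the mean of the 3, for the 9 members in which Kidney 1 stood furthest apart (left of the dotted line) and for the proximal tubule markers and Hnf4a (right). Kidney 1 is above the others for Ugt3a1, Ugt3a2, Lrp2 and Cubn, below them for Ugt2b37 and Ugt2b38, and level with them for Slc34a1.

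The genes that supply the donors were read beside the transferases. The counts in these lists stand beside shares over all genes tested of 14.9% higher and 16.2% lower in MHCIIhi minus MHCIIlo, 25.6% and 23% in Kidney minus MHCIIhi, and 29.7% and 28% in Kidney minus MHCIIlo. Of 11 tested genes of glutathione supply and breakdown, 0 were called higher and 5 lower in MHCIIhi minus MHCIIlo, among them Ggt1, which cleaves extracellular glutathione (-2.29 ± 0.44, adjusted p = 0.00443), Dpep1, a dipeptidase (-1.96 ± 0.40), and Oplah (-1.77 ± 0.23). Anpep and Lap3 were the other two, and Anpep is also one of the enterocyte markers. In Kidney minus MHCIIhi, 2 were called higher and 6 lower, and in Kidney minus MHCIIlo 2 and 7. Gclc, the catalytic subunit that limits glutathione synthesis, was called higher in Kidney (2.07 ± 0.19 against MHCIIhi and 1.63 ± 0.19 against MHCIIlo), as was Oplah (2.96 ± 0.23 and 1.19 ± 0.23). Dpep1 was called lower (-7.05 ± 0.40 and -9.01 ± 0.40), as was Anpep (-4.75 ± 0.45 and -6.34 ± 0.45).

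Of 6 tested glutathione peroxidases, 0 were called higher and 3 lower in MHCIIhi minus MHCIIlo: Gpx4 (-1.67 ± 0.27), Gpx2 (-1.56 ± 0.31) and Gpx3 (-1.04 ± 0.37). Gpx2, the gastrointestinal form, was called lower in Kidney by -11.41 ± 0.31 and -12.97 ± 0.31, and Gpx3, the plasma form made in kidney, higher by 9.00 ± 0.37 and 7.96 ± 0.37 (adjusted p = 1.57e-07 against MHCIIhi and 2.80e-07 against MHCIIlo). In all, 3 peroxidases were called higher and 1 lower in Kidney minus MHCIIhi, and 3 and 2 in Kidney minus MHCIIlo.

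For UDP-glucuronate, 1 of 9 genes was called higher (the lysosomal hydrolase Gusb, 1.48 ± 0.27) and 1 lower (the transporter Slc35d2, -1.17 ± 0.28) in MHCIIhi minus MHCIIlo. In Kidney minus MHCIIhi 1 was called higher and 5 lower, and in Kidney minus MHCIIlo 2 and 5. The hexokinase Hk1 was called higher (4.65 ± 0.24 and 4.78 ± 0.24) and Hk2 lower (-8.10 ± 0.47 and -7.22 ± 0.47), with Hk2 above background on 2 of 3 Kidney arrays. Ugdh, the dehydrogenase that makes UDP-glucuronate, was also among the lower ones (-1.15 ± 0.35 and -2.10 ± 0.35), as was Slc35d1, which carries it into the endoplasmic reticulum (-2.73 ± 0.28 and -3.66 ± 0.28). Of 12 genes of the sulfate donor, 0 were called higher and 5 lower in MHCIIhi minus MHCIIlo, including the anion exchanger Slc26a3 (-2.18 ± 0.62) and Papss2, a synthase of the donor PAPS (-1.84 ± 0.64, adjusted p = 0.0404). Kidney counts were 2 higher and 4 lower against MHCIIhi and 1 and 6 against MHCIIlo. The anion exchanger Slc26a6 was called lower (-5.10 ± 0.39 and -7.06 ± 0.39). Slc26a1, a sulfate transporter of the basolateral membrane, was called higher in Kidney (adjusted p = 0.000253 and 0.000612) and was above background on no intestinal array.

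All 7 conjugate exporters tested were called in both Kidney comparisons, 3 higher and 4 lower, where 48.6% of all genes tested were called against MHCIIhi and 57.7% against MHCIIlo. Abcc4 (3.67 ± 0.23 and 5.15 ± 0.23), Abcc1 and Abcc5 were higher, and Abcc2 (-4.0 ± 0.54 and -6.16 ± 0.54), the apical exporter of glucuronide and glutathione conjugates, Abcc3, Abcc6 and Abcg2 were lower. Within the intestine, Abcc1 (2.15 ± 0.24, adjusted p = 0.000452) and Abcc4 (1.48 ± 0.23) were called higher in MHCIIhi and Abcc2 (-2.16 ± 0.54, adjusted p = 0.0117) and Abcc6 (-1.89 ± 0.38) lower. Of 10 genes of the NRF2 pathway, which induces many glutathione S-transferases, 0 were called higher and 1 lower in MHCIIhi minus MHCIIlo, the sulfiredoxin Srxn1 (-1.43 ± 0.22). Kidney had 2 higher and 3 lower against MHCIIhi, and 2 and 5 against MHCIIlo, with Hmox1 and Gclc higher in both.

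Among 11 xenobiotic and tissue regulators, 1 was called lower in MHCIIhi minus MHCIIlo, the xenobiotic receptor Nr1i3 (-1.46 ± 0.39, adjusted p = 0.0157), and 0 higher. In Kidney, 1 was called higher and 7 lower against MHCIIhi, and 1 and 8 against MHCIIlo. The higher one was Ahr, the aryl hydrocarbon receptor (1.14 ± 0.19 and 1.65 ± 0.19). Nr1i2, the pregnane X receptor, stood at -3.41, -5.24 and -5.72 in Kidney, against 2.13, 2.10 and 2.76 in MHCIIhi and 3.33, 3.36 and 3.13 in MHCIIlo, and was called lower (-7.12 ± 0.52 and -8.06 ± 0.52, adjusted p = 4.43e-06 and 1.76e-06). Kidney 1 was again the highest Kidney array. Hnf4a was called lower by -4.05 ± 0.61 and -4.31 ± 0.61, the bile acid receptor Nr1h4 by -2.61 ± 0.26 and -3.03 ± 0.26, and Nr1i3 by -2.39 ± 0.39 and -3.85 ± 0.39. Rxra, Cdx1 and Cdx2 were called lower in both comparisons and Ppara against MHCIIlo alone, and the intestinal factors Cdx1 and Cdx2 were above background on no Kidney array.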

How the data were processed

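RNA of sorted cells was read on 9 single-colour arrays, 1 per sample, with groups taken from the sample titles. Per the file headers, every spot's deposited value is a linear intensity, from which Agilent Feature Extraction, version 10.5.1.1, had taken background and spatial trend, with no normalization between arrays. The authors' deposited value table holds the same intensity divided by each array's median, so that each column's median is 1 (largest relative deviation 2.37e-05). Probe positions are on mm8, per the file headers.

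Each array had 45018 spots, and control and outlier-flagged spots were left out. Spots of a probe were averaged, log2 values were scaled to the array's 75th percentile, and a probe was tested if some group had it well above background throughout, giving 19473 genes. That percentile of signal came to 599 to 769.7 in Kidney, 213 to 371 in MHCIIhi and 100.6 to 185 in MHCIIlo, and 71.2 to 73.2%, 60.9 to 64.7% and 51.0 to 57.3% of spots were well above background. The number of arrays limits the precision, and p-values measure the spread between pools of mice. limma 3.58.1 (lmFit, eBayes, R 4.3.3) was fitted to all 9 arrays with group as the factor. The code was tested on simulated data. Figures used Python 3.11.15 and matplotlib. RefSeq for GRCm38.p6 gave current names and neighbours.

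Members and lists were chosen with earlier results of these data known. Values on every array were given for the 28 members that a rule named: the 6 largest called differences per direction and comparison, the highest levels per group, and subfamilies with opposite calls. A few further members are given for Kidney 1 or probe disagreement, chosen after their values were seen. A further 3 genes, named as transferases by RefSeq alone, are not members by the rule. Alternatives covered normalization, background correction, filters, probe choice, slide and replicate blocks, thresholds and left-out arrays.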

Additional observations from a re-analysis of the deposited data

How the results depend on the processing

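Of 1845 single differences recomputed for the 28 members named by the rule, 1778 stayed on their side of the threshold, uncalled ones with a changed sign among them (Sult1c1 in MHCIIhi minus MHCIIlo was 0.30 with slide as a fixed block, against -0.66), 49 lost the call, 17 gained one, and 1 called difference turned sign, Sult5a1 in Kidney minus MHCIIlo (-0.018 with normexp, against 3.30). Leaving out 1 array at a time gave 3 to 5 members called higher and 8 to 13 lower in MHCIIhi minus MHCIIlo (5 and 10 with all arrays), 16 to 18 and 12 to 14 in Kidney minus MHCIIhi (16 and 13), and 14 to 15 and 16 to 18 in Kidney minus MHCIIlo (14 and 16). The count of 3 higher came without MHCIIhi 1, MHCIIhi 2 or MHCIIlo 3. Of the 5 called higher in MHCIIhi, 2 were left with normexp, 2 at an adjusted p below 0.01 and 0 with slide as a fixed block. Of lower calls there, slide as a fixed block left 2, and no minimum size gave 18. Requiring signal on all 9 arrays left 9 higher in Kidney minus MHCIIlo, since fewer genes are then tested. The cause of the other changes was not tested. With the replicate number as a replicate block the counts were again 5 and 10, 16 and 13, and 14 and 16. Same-numbered MHCIIhi and MHCIIlo arrays deviated with correlations of 0.19, -0.35 and 0.28, and differently numbered ones with -0.50 to 0.45. Slide is mixed into these deviations, and whether same-numbered sorts came from the same mice was not tested. The median of all genes moved from -0.24 to -0.07 in MHCIIhi minus MHCIIlo with quantile normalization and to -0.50 with normexp, and in Kidney minus MHCIIhi from -0.030 to -0.31 with the authors' table. Ugt1a1, Ugt2a3, Ugt2b35, Ugt3a1, Ugt3a2, Ugt8a and Sult5a1 were above background on no array of at least 1 group, against which only a bound on the fold is measured. Bounds with each array left out were computed after seeing the data, and besides Ugt3a1 and Ugt3a2 without Kidney 1 none moved by over 1.5 times. The bounds were not recomputed with other background corrections or normalizations. Over the settings the smallest fitted Kidney minus MHCIIhi differences were -3.63 for Ugt2a3, -3.39 for Ugt2b35, 3.38 for Ugt3a1 and 1.77 for Ugt8a. Each is a smaller fold than its bound.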
